A study of Rattus norvegicus with 9 samples.

Results

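Rab proteins are small GTPases that direct membrane traffic, and 44 Rab genes were measured among the 10411 genes of a comparison of rat midbrain cultures with embryonic midbrain. The members were all genes whose symbol is Rab, a number and at most 1 letter. Effectors and regulators with longer symbols, such as the Rab11fip genes, were left out. Each gene was read from its probe set with 1 symbol, the brightest where there were several.

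Expression was compared on 9 Affymetrix rat arrays. The culture arrays (MesPC, 6 arrays) held RNA from rat ventral midbrain cells grown for 9 days in vitro, without an added agent named in the labels. The tissue arrays (MesE11, 3 arrays) held RNA from pools of the ventral midbrain itself, dissected at embryonic day 11. Embryos of 4 pregnant rats had been mixed into 3 groups that served as the source of both kinds of sample, so each array stands for pooled embryos. No strain or genotype is named in the labels. Cells of each embryo group were grown in duplicate, per the labels, and the sample descriptions speak of 3 culture arrays where 6 were deposited. Some of the 6 culture arrays may therefore share a culture or an embryo pool, and n = 6 counts arrays. The p-values measure the spread between these arrays alone, which may be technical in part.

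A Rab protein switches between a GDP-bound form, which the chaperone GDI keeps in the cytosol, and a GTP-bound form on a membrane. Exchange factors switch it on, GTPase activating proteins switch it off, and the active form recruits effectors such as tethers and motors. Each compartment of the secretory and endocytic routes carries its own Rabs. Neurons use this system for axonal transport and transmitter release, with members of the Rab3 family on synaptic vesicles.

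Values are log2 intensities made by the authors with RMA, and differences are MesPC minus MesE11 in log2 units, given ± their standard error from limma over 6 and 3 arrays. A gene passed where its p from limma, with Benjamini-Hochberg adjustment over the 15866 probe sets tested, lay under 0.05. Precision is limited by the small number of arrays. The culture arrays did not form 1 group. Pearson's r between arrays, taken over probe sets that are no replicates of each other, was 0.997 to 0.998 within arrays 1 to 3 and within arrays 4 to 6, and 0.982 to 0.987 between these sets. The labels name nothing that parts them, so their differences are described below without a test. Cell type markers also differed between the groups. Of 8 neuron markers measured, 5 were lower in culture, and the mean of all 8 was 10.73 to 10.98 in culture arrays 1 to 3, 11.91 to 11.97 in arrays 4 to 6 and 12.46 to 12.59 in tissue. All 8 fibroblast markers were higher in culture, with list means of 11.46 to 11.63 in arrays 1 to 3, 11.12 to 11.26 in arrays 4 to 6 and 7.94 to 8.22 in tissue. The list means of the 6 astrocyte markers, 5 of them higher in culture, were 10.60 to 10.62, 10.31 to 10.42 and 9.00 to 9.31 in the same order. Those of the 4 markers of dividing cells, all higher in culture, were 10.61 to 10.80, 9.75 to 10 and 8.55 to 8.81. Lower in culture were 3 of 6 microglia and macrophage, 3 of 3 endothelium and 4 of 4 erythroid markers. Of all genes 21.9% were higher and 22.7% lower in culture. The means of the endothelium marker Pecam1, which passed, and of the macrophage marker Ptprc, which did not, lay inside the span of the controls for bacterial genes. The part of these cell types in the Rab values was not tested. In such bulk samples fewer cells of a type and less RNA per cell cannot be told apart.

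**Figure D1:**
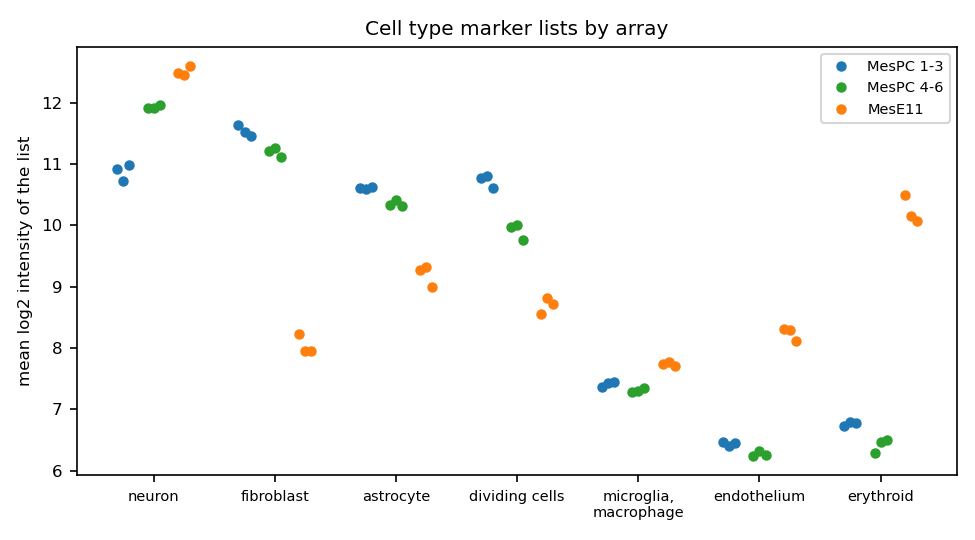
Mean log2 intensity (vertical axis) of the markers of each of 7 cell type lists, with 1 point per array, for MesPC arrays 1 to 3, MesPC arrays 4 to 6 and MesE11 arrays. Neuron markers are lowest in culture arrays 1 to 3 (10.73 to 10.98) and highest in tissue (12.46 to 12.59), while fibroblast markers are higher in all 6 culture arrays than in tissue.

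The largest differences between culture and tissue were those of Rab34 (1.41), Rab3a (-1.06), Rab3b (-0.80) and Rab9a (0.67). Of the 44 members, 7 rose and 9 fell. In all, 36.4% of the members passed, against 44.6% of all genes (21.9% higher and 22.7% lower). Their median difference was -0.06, the same as for all genes. Those that rose were Rab34, Rab9a, Rab31, Rab28, Rab8a, Rab6a and Rab5b. Those that fell were Rab3a, Rab3b, Rab26, Rab3d, Rab25, Rab15, Rab40c, Rab35 and Rab1a. Rab34 and Rab3a changed by 2-fold or more, as did 5.76% of all genes. All 6 culture values lay above tissue for 6 members and below it for 8, as for 21.1% and 23.3% of all genes. These 14 also passed, as did 40.4% of all genes. With the culture sets entered as a random block, 5 rose and 5 fell (22.4% of all genes passed that fit). Rab6a, Rab5b, Rab3a, Rab40c, Rab35 and Rab1a then did not pass. The tissue arrays formed 1 further block in that fit, which used 1 correlation within blocks for all probe sets (0.447). It thus set 2 culture blocks against 1 tissue block. With culture arrays 1 to 3 alone 7 rose and 14 fell, where 25.7% and 27% of all genes did, and with arrays 4 to 6 alone 10 rose and 11 fell, where 22.9% and 27.2% did.

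**Figure D2:**
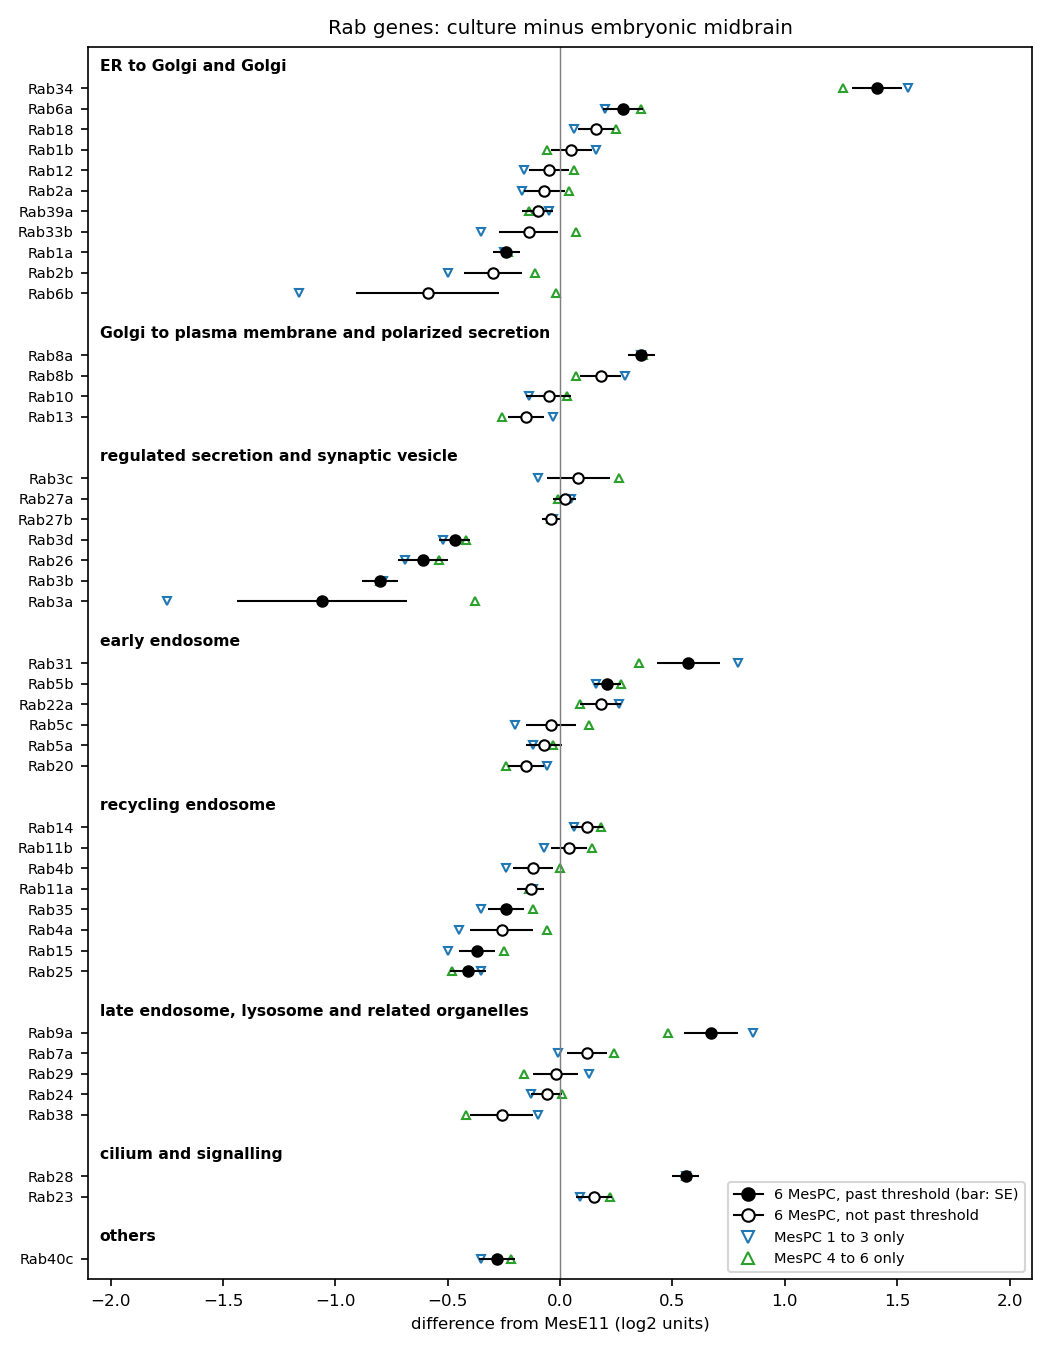
Difference from MesE11 in log2 units (horizontal axis) of the 44 Rab genes, grouped by the step of membrane traffic they are known for. Circles with bars give the 6 MesPC arrays minus the 3 MesE11 arrays ± standard error, filled where the gene passed, and triangles give MesPC arrays 1 to 3 and 4 to 6 alone. Rab34 lies farthest right at 1.41 and Rab3a farthest left at -1.06, and the triangles of Rab3a and Rab6b lie far apart.

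Among the Rabs of regulated secretion, 4 of 7 fell and the other 3 did not pass, where 22.7% of all genes fell. With the random block 3 of the 7 fell, where 9.11% of all genes did. Rab3a, the main Rab of synaptic vesicles, read 9.03, 8.98 and 9.33 in culture arrays 1 to 3 and 10.40, 10.54 and 10.49 in arrays 4 to 6, against 10.76, 10.94 and 10.88 in tissue. All 6 culture values lay below the tissue values, and arrays 1 to 3 lay far below the others. The difference was -1.06 ± 0.38 (2.09-fold lower, limma adjusted p = 0.0478). It was -1.75 ± 0.09 with culture arrays 1 to 3 and -0.38 ± 0.09 with arrays 4 to 6. The call did not hold with the random block (adjusted p = 0.0704), without any 1 tissue array or without any 1 of MesPC replicates 1 to 3; over all alternatives the limma adjusted p was 1.15e-07 to 0.127. Within either culture set alone Rab3a passed (limma adjusted p = 3.83e-07 and 0.0018).

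Rab3b, a close relative of Rab3a also found in endocrine cells, read 8.62, 8.66 and 8.72 in culture arrays 1 to 3 and 8.71, 8.60 and 8.67 in arrays 4 to 6, against 9.42, 9.67 and 9.30 in tissue. Here the culture sets coincided, below every tissue value. Rab3b fell by 0.80 ± 0.08 (limma adjusted p = 3.65e-05), with -0.79 ± 0.09 for arrays 1 to 3 and -0.80 ± 0.09 for arrays 4 to 6. Rab3d, known from the granules of exocrine cells, read 8.21, 8.28 and 8.40 in culture arrays 1 to 3 and 8.31, 8.48 and 8.40 in arrays 4 to 6, against 8.79, 8.86 and 8.80 in tissue. It fell by 0.47 ± 0.07 (limma adjusted p = 0.000381), again with no overlap between culture and tissue. Rab26, which acts on secretory granules and synaptic vesicles, read 7.38, 7.59 and 7.22 in culture arrays 1 to 3 and 7.53, 7.48 and 7.63 in arrays 4 to 6, against 8.35, 7.90 and 8 in tissue. All 6 culture values of Rab26 were below tissue, and it fell by 0.61 ± 0.11 (limma adjusted p = 0.00212). Its probe set was among the dimmest 40%. The lower quartile of the arrays was lower in culture too, at 6.98 to 7.11 against 7.15 to 7.21 in tissue.

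Rab3c, another Rab of synaptic vesicles, did not follow. Its values were 8.03, 7.96 and 8.32 in culture arrays 1 to 3 and 8.65, 8.45 and 8.30 in arrays 4 to 6, against 8.22, 8.32 and 8.08 in tissue, and the groups overlapped (0.08 ± 0.14, limma adjusted p = 0.665). It passed as higher with arrays 4 to 6 alone (limma adjusted p = 0.0448, against 0.423 with arrays 1 to 3 alone), and in none of its other alternatives. Rab27a, which moves melanosomes and lytic granules, read 5.92, 5.96 and 5.95 in culture arrays 1 to 3 and 5.85, 5.92 and 5.87 in arrays 4 to 6, against 5.90, 5.85 and 5.92 in tissue. Rab27b, its relative on dense-core granules, read 5.91, 5.92 and 5.93 in culture arrays 1 to 3 and 5.92, 5.90 and 5.92 in arrays 4 to 6, against 5.90, 5.99 and 5.97 in tissue. Neither passed, and the means of both lay inside the span of the controls for bacterial genes (4.90 to 6.68), as did those of Rab39a, so the values of these 3 genes cannot be told from background.

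**Figure D3:**
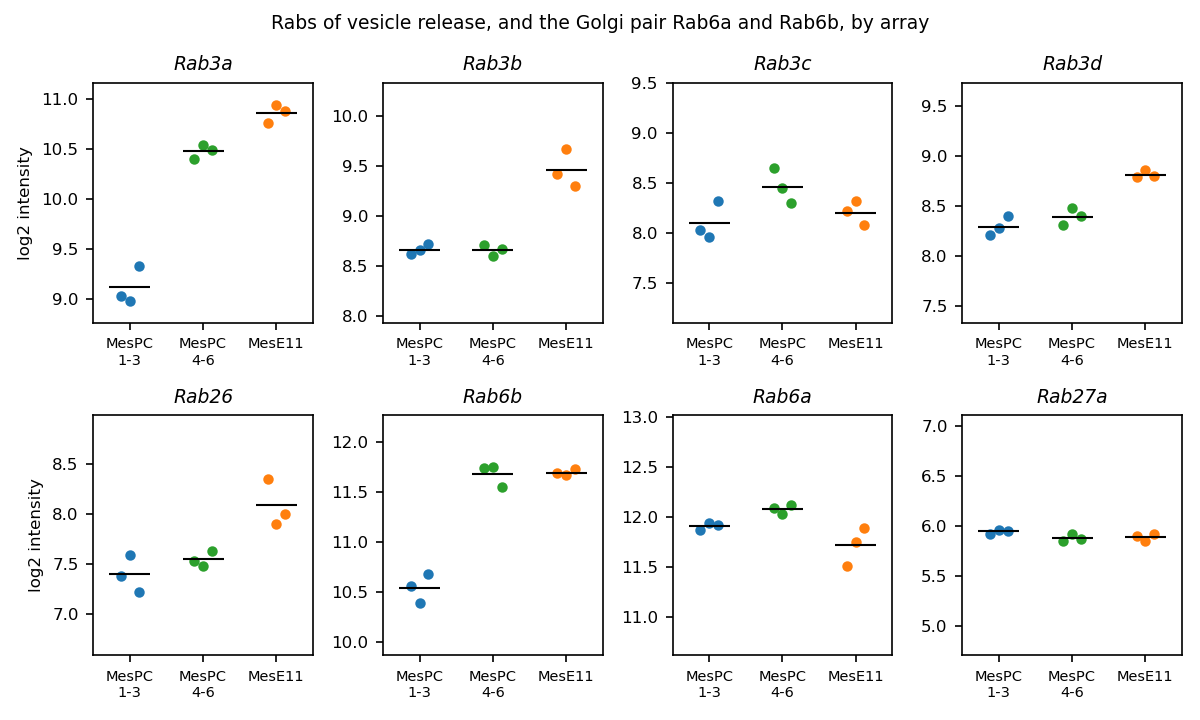
Log2 intensity (vertical axes, each spanning the same number of log2 units) of 8 Rab genes, with 1 point per array and a bar at the mean of 3, for MesPC arrays 1 to 3, MesPC arrays 4 to 6 and MesE11. Rab3a and Rab6b are low in culture arrays 1 to 3 alone or mainly there, whereas Rab3b reads 8.60 to 8.72 in all 6 culture arrays, below every tissue value.

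Of the members grouped under the early secretory route, the Golgi or neighbouring compartments, 2 of 11 rose and 1 fell, where 21.9% and 22.7% of all genes did. Under the random block 1 of the 11 rose and 0 fell, where 13.2% and 9.11% of all genes did. Rab34, which is found at the Golgi and takes part in the making of cilia and in the placing of lysosomes, had the largest rise of the family. It read 10.91, 10.80 and 10.89 in culture arrays 1 to 3 and 10.55, 10.69 and 10.47 in arrays 4 to 6, against 9.35, 9.42 and 9.17 in tissue. Every culture value was more than 1 log2 unit above every tissue value. Rab34 rose by 1.41 ± 0.11 (2.65-fold, limma adjusted p = 8.35e-06). Its dimmer probe set read 9.11 in culture and 9.17 in tissue and did not pass (-0.07 ± 0.13). The mean of both probe sets rose by 0.67. On the dimmer one the difference from tissue was 0.15 ± 0.07 with culture arrays 1 to 3 and -0.29 ± 0.07 with arrays 4 to 6. With arrays 4 to 6 alone this probe set passed as lower (limma adjusted p = 0.00738).

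Rab1a, which acts between endoplasmic reticulum and Golgi, read 12.46, 12.40 and 12.40 in culture arrays 1 to 3 and 12.52, 12.29 and 12.51 in arrays 4 to 6, against 12.64, 12.63 and 12.74 in tissue. The values did not overlap and the fall was small, -0.24 ± 0.06 (limma adjusted p = 0.013). It did not pass with the random block (adjusted p = 0.161) or without MesE11 replicate 3 (0.0595). Over all alternatives the limma adjusted p of Rab1a was 0.00674 to 0.161. Rab6a, a Golgi Rab of most cells, rose by 0.28 ± 0.09 (limma adjusted p = 0.0296), but 1 of its 6 culture values lay below the highest tissue value. The call of Rab6a ended in 9 of its 18 alternatives, among them without MesE11 replicate 1 or 2 or MesPC replicate 6 (limma adjusted p from 0.00844 to 0.192 over all). Rab1b, Rab2a, Rab2b, Rab12, Rab18, Rab33b and Rab39a, members of the same route or of neighbouring compartments, differed by -0.30 to 0.16 and did not pass.

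Rab6b, the paralog of Rab6a that is enriched in neurons, read 10.56, 10.39 and 10.68 in culture arrays 1 to 3 and 11.74, 11.75 and 11.55 in arrays 4 to 6, against 11.69, 11.67 and 11.73 in tissue. Arrays 4 to 6 thus overlapped with tissue, while arrays 1 to 3 lay far below both. Over all 6 culture arrays the difference was -0.59 ± 0.32 and did not pass (limma adjusted p = 0.158). It was -1.16 ± 0.08 for arrays 1 to 3 (limma adjusted p = 1.48e-06 with these alone) and -0.02 ± 0.08 for arrays 4 to 6 (0.840). These fits share the tissue arrays.

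The sequence just before the start of Rab3a, of Rab6b and of Rab34 is shown because Rab3a and Rab6b were the members that differed most between the culture sets and Rab34 had the largest rise. Each run holds the 250 bases upstream of the start that RefSeq gives in the assembly GRCr8, 5′ to 3′ on the strand of the gene. Capitals mark GGGCGG, the GC box, and TGACG, a core of the cyclic AMP response element, on either strand. The regions are chr16:18722274-18722523 on the minus strand, chr8:112573973-112574222 on the plus strand and chr10:63581292-63581541 on the plus strand.
Rab3a: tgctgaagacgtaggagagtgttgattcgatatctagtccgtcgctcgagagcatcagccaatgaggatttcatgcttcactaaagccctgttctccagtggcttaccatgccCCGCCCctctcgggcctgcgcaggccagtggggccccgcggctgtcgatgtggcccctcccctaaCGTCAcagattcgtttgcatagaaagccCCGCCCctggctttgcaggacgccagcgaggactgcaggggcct
Rab6b: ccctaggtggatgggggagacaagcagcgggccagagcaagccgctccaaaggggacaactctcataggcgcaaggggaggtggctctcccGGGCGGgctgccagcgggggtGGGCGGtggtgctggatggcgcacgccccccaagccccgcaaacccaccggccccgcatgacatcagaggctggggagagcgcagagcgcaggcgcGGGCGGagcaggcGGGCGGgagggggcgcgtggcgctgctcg
Rab34: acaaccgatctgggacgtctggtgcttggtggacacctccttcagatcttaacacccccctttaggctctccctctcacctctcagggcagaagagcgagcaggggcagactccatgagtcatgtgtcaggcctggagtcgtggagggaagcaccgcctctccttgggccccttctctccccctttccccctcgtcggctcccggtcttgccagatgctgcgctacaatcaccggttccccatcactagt
Rab3a had 2 GC boxes and 1 TGACG, Rab6b had 4 GC boxes, and the 250 bases of Rab34 held neither motif. GC made up 60.4% of the bases of Rab3a, 73.6% of those of Rab6b and 60.4% of those of Rab34. Of the 36 members with an upstream sequence in the table, 83.3% held GGGCGG and 36.1% held TGACG. Over all 33469 upstream sequences of that length the shares were 30.5% and 18.2%, and over the 8630 of genes measured on the array 56.2% and 26.6%. The motifs do not overlap in the sequences shown, and a match is a match of letters only.

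Of the Rabs that serve the step from Golgi to plasma membrane, 1 of 4 rose, where 21.9% of all genes did. Under the random block 1 of the 4 rose too, where 13.2% of all genes did. Rab8a, which carries cargo to the cell surface and to the cilium, read 10.78, 10.62 and 10.76 in culture arrays 1 to 3 and 10.82, 10.68 and 10.71 in arrays 4 to 6, against 10.37, 10.34 and 10.38 in tissue. The culture sets coincided above tissue, and Rab8a rose by 0.36 ± 0.06 (limma adjusted p = 0.000694). Its paralog Rab8b differed by 0.18 ± 0.09 and did not pass over all 6 arrays. Rab10, which brings glucose transporters to the surface of fat cells, differed by -0.05 ± 0.10, and Rab13, a Rab of cell junctions, by -0.15 ± 0.08. Neither passed.

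In the early endosome, 2 of 6 members rose, where 21.9% of all genes did. Under the random block 1 of the 6 rose, where 13.2% of all genes did. Rab31, which works between the trans-Golgi network and endosomes, read 11.92, 12.17 and 12.20 in culture arrays 1 to 3 and 11.66, 11.67 and 11.63 in arrays 4 to 6, against 11.32, 11.26 and 11.35 in tissue. The 3 sets of values stood apart, with arrays 1 to 3 highest. Rab31 rose by 0.57 ± 0.14 (limma adjusted p = 0.00907), by 0.79 ± 0.07 with arrays 1 to 3 and 0.35 ± 0.07 with arrays 4 to 6. Its dimmer probe set rose too, by 0.73 ± 0.25 (limma adjusted p = 0.043). Of the Rab5 paralogs, which govern fusion of early endosomes, Rab5b read 10.59, 10.70 and 10.73 in culture arrays 1 to 3 and 10.79, 10.84 and 10.71 in arrays 4 to 6, against 10.52, 10.57 and 10.46 in tissue, a rise of 0.21 ± 0.06 (limma adjusted p = 0.0219). That small rise did not pass with the random block, with arrays 1 to 3 alone, with centring on ribosomal protein probe sets or without MesE11 replicate 1 or 3 (limma adjusted p from 0.00897 to 0.175 over its alternatives). Rab5a read 10.16, 10.16 and 9.89 in culture arrays 1 to 3 and 10.18, 10.02 and 10.28 in arrays 4 to 6, against 10.12, 10.21 and 10.23 in tissue, with overlap (-0.07 ± 0.08). Rab5c, Rab20 and Rab22a differed by -0.15 to 0.18 and did not pass.

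In recycling, 3 of 8 members fell, where 22.7% of all genes did. Under the random block 2 of the 8 fell, where 9.11% of all genes did. Rab25, a Rab of epithelial recycling endosomes, read 7.84, 7.74 and 7.99 in culture arrays 1 to 3 and 7.66, 7.67 and 7.84 in arrays 4 to 6, against 8.16, 8.20 and 8.25 in tissue. Both culture sets lay below tissue, and Rab25 fell by 0.41 ± 0.08 (limma adjusted p = 0.00216). Like that of Rab26, its probe set was among the dimmest 40%. Rab15, an endosomal Rab found mainly in neural tissue, read 7.94, 7.85 and 7.87 in culture arrays 1 to 3 and 8.17, 8.10 and 8.12 in arrays 4 to 6, against 8.33, 8.38 and 8.44 in tissue. The 3 sets of Rab15 values stood apart with arrays 1 to 3 lowest, and it fell by 0.37 ± 0.08 (limma adjusted p = 0.00531), whereas its dimmer probe set did not pass (-0.05 ± 0.07) and the mean of both fell by 0.21. Rab35, which recycles receptors and shapes actin at the plasma membrane, read 9.32, 9.30 and 9.30 in culture arrays 1 to 3 and 9.58, 9.48 and 9.55 in arrays 4 to 6, against 9.68, 9.65 and 9.64 in tissue. It fell by 0.24 ± 0.08 (limma adjusted p = 0.0345), but not past the threshold with the random block, with arrays 4 to 6 alone, without any 1 tissue array or without any 1 of MesPC replicates 1 to 3 (limma adjusted p from 0.000472 to 0.15 over its alternatives).

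The broadly used recycling Rabs did not pass on their brightest probe sets. Rab11a, the best known of them, read 11.38, 11.20 and 11.32 in culture arrays 1 to 3 and 11.39, 11.28 and 11.18 in arrays 4 to 6, against 11.47, 11.42 and 11.37 in tissue (-0.13 ± 0.06, limma adjusted p = 0.116). Rab11b read 12.71, 12.67 and 12.71 in culture arrays 1 to 3 and 12.79, 12.97 and 12.96 in arrays 4 to 6, against 12.69, 12.85 and 12.76 in tissue (0.04 ± 0.08). For both genes the groups overlapped. Rab4a, which serves rapid recycling from early endosomes, read 8.62, 8.79 and 8.89 in culture arrays 1 to 3 and 9.28, 9.12 and 9.07 in arrays 4 to 6, against 9.12, 9.40 and 9.13 in tissue. In Rab4a arrays 1 to 3 lay below tissue and arrays 4 to 6 overlapped with it (-0.26 ± 0.14 over all 6, limma adjusted p = 0.149). Rab4b and Rab14 differed by -0.12 ± 0.09 and 0.12 ± 0.07.

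Of the Rabs of late endosomes, lysosomes and related organelles, 1 of 5 rose and 0 fell, where 21.9% and 22.7% of all genes did. Under the random block 1 of the 5 rose, where 13.2% of all genes did. The member that rose was Rab9a, which returns mannose 6-phosphate receptors to the Golgi. Rab9a read 9.70, 9.65 and 9.83 in culture arrays 1 to 3 and 9.44, 9.37 and 9.22 in arrays 4 to 6, against 8.93, 8.88 and 8.79 in tissue. The culture values lay above tissue in 6 of 6 arrays, and Rab9a rose by 0.67 ± 0.12 (1.59-fold, limma adjusted p = 0.00217). It rose by 0.86 ± 0.08 with arrays 1 to 3 and by 0.48 ± 0.08 with arrays 4 to 6. Rab7a, which drives late endosomes to fuse with lysosomes, read 11.98, 11.88 and 11.91 in culture arrays 1 to 3 and 12.26, 12.13 and 12.11 in arrays 4 to 6, against 11.92, 12.01 and 11.86 in tissue. Its groups overlapped on this probe set (0.12 ± 0.09, limma adjusted p = 0.303). Rab24, Rab29 and Rab38, known from autophagy, the trans-Golgi network and melanosomes, differed by -0.26 to -0.02 and did not pass.

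Of the pair tied to cilia and signalling, Rab28, a Rab of the cilium and of photoreceptors, read 11.39, 11.22 and 11.32 in culture arrays 1 to 3 and 11.37, 11.27 and 11.26 in arrays 4 to 6, against 10.66, 10.84 and 10.73 in tissue. The culture sets coincided and lay above tissue, and Rab28 rose by 0.56 ± 0.06 (1.48-fold, limma adjusted p = 7.31e-05). Rab23, which restrains Hedgehog signalling in the mouse neural tube, differed by 0.15 ± 0.08 and did not pass. Rab40c, whose protein joins a ubiquitin ligase, fell by 0.28 ± 0.08 (limma adjusted p = 0.0143), with 5 of 6 culture values below tissue. Its call ended with the random block (adjusted p = 0.131) and without MesE11 replicate 1 or 2 (0.0546 and 0.0624), over a range of 0.0018 to 0.131 for all alternatives.

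**Figure D4:**
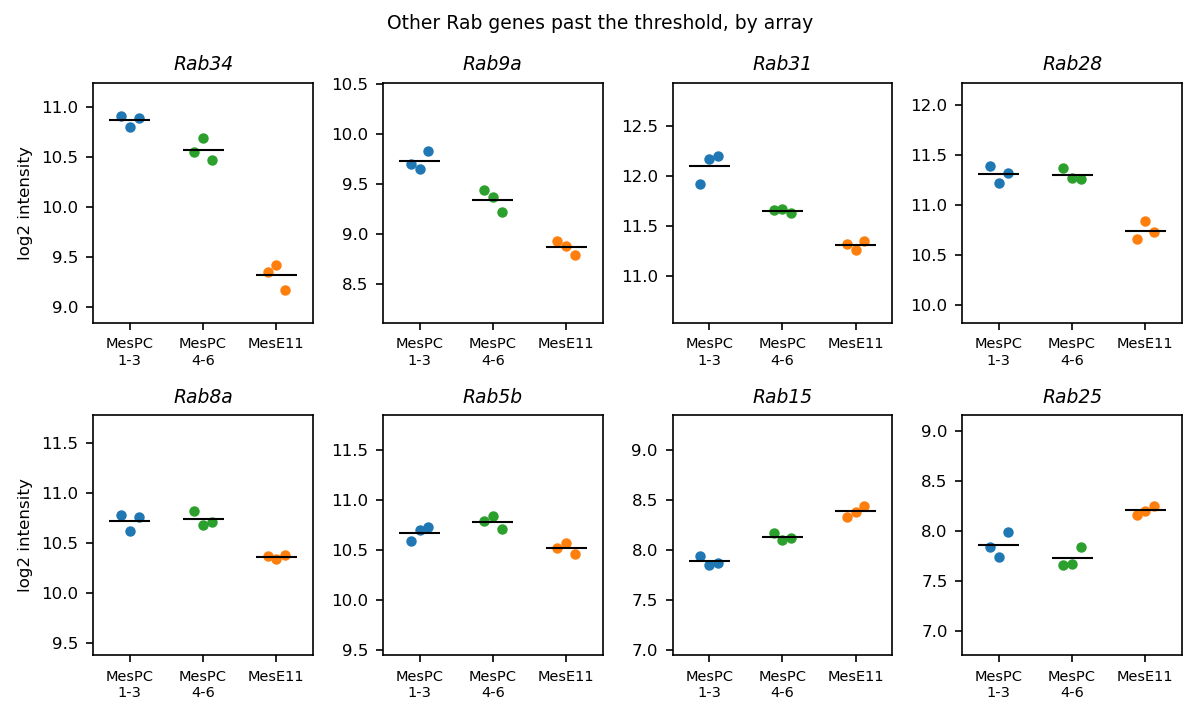
Log2 intensity (vertical axes, each spanning the same number of log2 units) of 8 further Rab genes that passed, with 1 point per array and a bar at the mean of 3, for MesPC arrays 1 to 3, MesPC arrays 4 to 6 and MesE11. In Rab34, Rab9a and Rab31 arrays 1 to 3 lie highest, in Rab28 and Rab8a both culture sets coincide above tissue, and in Rab15 and Rab25 the culture arrays lie below tissue.

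The 2 sets of culture arrays differed in many Rab genes by small amounts and in Rab3a and Rab6b by large ones. Culture arrays 1 to 3 lay above arrays 4 to 6 without overlap for 10 of the 44 members (22.7%) and below them for 16 (36.4%), where the shares over all genes were 26% and 22.4% (48.4% either way). At a difference of at least 0.5 as well, arrays 1 to 3 were lower for Rab3a and Rab6b, a rule that took 5.89% of all genes; 2.8% of all genes were higher by it and 8.68% passed it either way. The difference of arrays 1 to 3 minus arrays 4 to 6 was -1.37 ± 0.09 for Rab3a (2.58-fold lower) and -1.14 ± 0.08 for Rab6b (2.2-fold lower). Of the neuron markers, 7 of 8 were lower in arrays 1 to 3 by the same rule. The other 14 members that were lower in arrays 1 to 3 without overlap differed by -0.42 to -0.13. Among them were Rab33b (-0.42 ± 0.08), a Golgi Rab that binds an autophagy factor, Rab2b (-0.40 ± 0.07), which acts between endoplasmic reticulum and Golgi, Rab4a (-0.39 ± 0.09) and Rab5c (-0.33 ± 0.08). These 4 were picked after their values were seen.

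In the other direction Rab31 came nearest to that size, with 0.44 ± 0.07 for arrays 1 to 3 minus arrays 4 to 6, or 0.83 ± 0.12 on its dimmer probe set. Rab9a (0.38 ± 0.08), Rab38 (0.32 ± 0.12), Rab34 (0.30 ± 0.08), Rab29 (0.29 ± 0.07) and Rab13 (0.24 ± 0.06) were higher in arrays 1 to 3 without overlap too. Those 5 had the largest such differences after Rab31. Markers of dividing cells were higher in arrays 1 to 3 for 4 of 4 genes by the rule with the size. So were 2 of 8 fibroblast, 1 of 6 astrocyte and 1 of 4 erythroid markers. By contrast Rab3b, Rab8a, Rab28, Rab1a and Rab11a differed between the sets by -0.02 to 0.02, with overlap. The split of the culture arrays was noticed in these data, so these values carry no test.

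**Figure D5:**
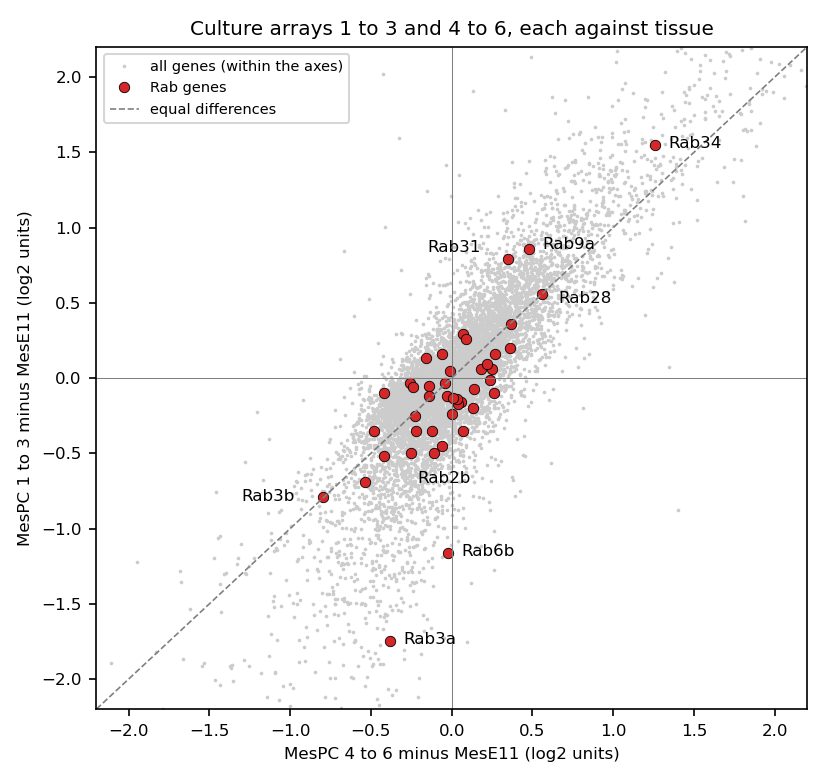
Difference of MesPC arrays 1 to 3 from MesE11 (vertical axis) against that of MesPC arrays 4 to 6 from MesE11 (horizontal axis), both in log2 units, with 1 point per gene and the 44 Rab genes in red. Both axes share the tissue arrays. Rab3b and Rab28 lie on the line of equal differences, while Rab6b (-1.16 and -0.02) and Rab3a (-1.75 and -0.38) lie far below it.

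For the 14 members with several probe sets, 60 probe sets of the family being measured in all, the probe sets did not always move alike. Rab31 alone had more than 1 probe set that passed. In 4 of the 14 genes the brightest probe set did not pass but a dimmer one did, as in 16.8% of the 1868 genes with several probe sets. The dimmer probe set of Rab11a read 10.37 in culture and 10.93 in tissue and fell by 0.56 ± 0.08 (limma adjusted p = 0.000377). That of Rab7a read 11.09 in culture and 10.63 in tissue and rose by 0.46 ± 0.06 (limma adjusted p = 0.000373). A dimmer probe set of Rab12 fell by 0.37 ± 0.08 and 1 of 3 dimmer ones of Rab14 fell by 0.35 ± 0.06. For Rab5b and Rab6a the dimmer probe set did not pass (0.17 ± 0.09 and 0.10 ± 0.10). With probe sets averaged per gene, Rab11a passed as lower (-0.35, limma adjusted p = 0.00182). Rab7a and Rab22a then passed as higher (0.29 and 0.17, limma adjusted p = 0.00938 and 0.0384). Rab6a did not pass in that fit (0.19, limma adjusted p = 0.0557).

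The regulators and effectors of Rab proteins went both ways. Of 162 listed genes 104 were measured, and 17 rose and 28 fell, or 43.3% against the 44.6% of all genes. Their median difference was -0.11, against -0.06 for all genes. Of 7 genes for prenylation and membrane cycling 2 fell, of which Arl6ip5, a membrane protein related to the prenylated Rab acceptor, fell by 0.39 ± 0.08. Of all genes 21.9% rose and 22.7% fell. With the random block 11 of the 104 rose and 11 fell, where 13.2% and 9.11% of all genes did.

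Of 31 exchange factors 6 rose (19.4%) and 8 fell (25.8%), where 21.9% and 22.7% of all genes did. Under the random block 3 rose and 3 fell, where 13.2% and 9.11% of all genes did. Madd, the exchange factor of Rab3, fell to 9.54 in culture, against 10.60 in tissue (-1.06 ± 0.25, limma adjusted p = 0.00705). Its culture sets stood apart, with -1.49 ± 0.07 for arrays 1 to 3 and -0.63 ± 0.07 for arrays 4 to 6. Mon1a, part of the exchange factor of Rab7, fell by 0.61 ± 0.06, Trappc4, a subunit of the TRAPP complex that acts on Rab1, by 0.46 ± 0.11 (-0.63 ± 0.06 with arrays 1 to 3 and -0.29 ± 0.06 with arrays 4 to 6), and Dennd6b by 0.32 ± 0.07. Dennd2b and Dennd4c, exchange factors with a DENN domain, rose by 1.09 ± 0.08 and 0.84 ± 0.10. Dennd6b did not pass with the random block (adjusted p = 0.0801, range 0.00187 to 0.0801).

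Of 18 GTPase activating proteins 3 rose (16.7%) and 6 fell (33.3%), where 21.9% and 22.7% of all genes did. Under the random block 3 rose and 2 fell, where 13.2% and 9.11% of all genes did. Evi5, a GTPase activating protein that also binds Rab11 and takes part in cell division, read 11.24, 11.18 and 11.14 in culture arrays 1 to 3 and 11.02, 11.01 and 11.07 in arrays 4 to 6, against 9.45, 9.67 and 9.27 in tissue. It rose by 1.64 ± 0.09 (3.12-fold, limma adjusted p = 7.71e-07), with every culture value above tissue. Its relative Evi5l fell by 0.44 ± 0.11, with -0.61 ± 0.07 for arrays 1 to 3 and -0.28 ± 0.07 for arrays 4 to 6 (limma adjusted p from 7.44e-05 to 0.0477 over its alternatives). Tbc1d2b rose by 0.57 ± 0.08, and Tbc1d22b, Sgsm3 and Tbc1d10b, which share the TBC domain, fell by 0.53 ± 0.08, 0.39 ± 0.09 and 0.32 ± 0.06. With the random block Sgsm3 and Tbc1d10b did not pass (adjusted p = 0.0631 and 0.0628, the highest over their alternatives).

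Of 25 genes listed as effectors or partners of secretory and synaptic Rabs 1 rose (4%) and 8 fell (32%), where 21.9% and 22.7% of all genes did. Under the random block 1 rose and 4 fell, where 13.2% and 9.11% of all genes did. Dmxl2, or rabconnectin-3, which binds the regulators of Rab3 on synaptic vesicles, fell by 0.97 ± 0.24 (limma adjusted p = 0.00994), with -1.39 ± 0.06 in arrays 1 to 3 and -0.54 ± 0.06 in arrays 4 to 6. Myo5a, the myosin that carries Rab27 vesicles, fell by 0.74 ± 0.09, Exoc6, a subunit of the exocyst, by 0.64 ± 0.10, and Rims3, of the active zone family, by 0.37 ± 0.07. Rph3al, or Noc2, an effector of Rab3 and Rab27 in endocrine cells, was the member that rose (0.67 ± 0.10).

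Of 23 effectors of endocytic and recycling Rabs 7 rose (30.4%) and 4 fell (17.4%), where 21.9% and 22.7% of all genes did. Under the random block 4 rose and 1 fell, where 13.2% and 9.11% of all genes did. Rilpl2 and Rilpl1, which bind Rabs at the cilium base, rose by 0.87 ± 0.08 and 0.60 ± 0.11, Ankfy1, a Rab5 effector, by 0.71 ± 0.08, and Fyco1, which links Rab7 vesicles to kinesin, by 0.64 ± 0.13. Rabep1, or rabaptin-5, which joins Rab5 and Rab4, fell by 0.49 ± 0.10, and Sh3tc2, a Rab11 effector, by 0.44 ± 0.13. With its probe sets averaged, Rilpl1 rose by 0.26. Rabep1 did not pass with its probe sets averaged (adjusted p = 0.0642, range 3.51e-05 to 0.0642). Sh3tc2 did not pass with the random block (0.120) or without MesE11 replicate 2 or 3 (adjusted p = 0.0580 and 0.0960, range 0.00167 to 0.12).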

How the data were processed

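RNA of 6 MesPC and 3 MesE11 samples was hybridized to Affymetrix rat arrays after Tri-Reagent isolation and biotin labelling, per the labels' protocols. The authors made the deposited log2 intensities with RMA, per the submitters' processing notes; the sources used here do not state its version. RMA fits arrays to nearly 1 distribution, so differences are relative to other probe sets. The lower quartile was 6.98 to 7.11 in culture and 7.15 to 7.21 in tissue, a shift that can enter small differences of dim genes.

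Of 15923 probe sets, 57 controls were left out. Symbols came from the array's annotation: 12783 tested probe sets had 1 symbol, 312 had several and 2771 were not listed. All 44 members were found by Entrez number in the RefSeq gene table of GRCr8, with 0 symbols changed. limma 3.58.1 in R 4.3.3 (lmFit, eBayes) was fitted to all 9 arrays, with Benjamini-Hochberg adjustment; the culture sets were described from a fit with 3 means. The fit was tested on simulated data. Plots used matplotlib 3.10.9. Alternatives were quantile normalization, centring on the median of all or of 43 ribosomal protein probe sets, a filter that drops the dimmest 40%, leaving out single arrays, averaging probe sets, a random block, either culture set alone and a replicate block.

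The members, lists and settings were chosen with earlier results of these data known. Values per array were given by rule for members that passed without overlap and for Rab1a, the Rab3 and Rab27 genes, Rab4a, Rab5a, Rab7a, Rab8a, Rab11a and Rab11b. Between the culture sets the rule took members without overlap and with a difference of at least 0.5. From each role of the regulators it took up to 4 genes that passed without overlap in the commoner direction and up to 2 in the other. Replicate numbers were not taken to pair the samples, as the sensitivity section reports.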

Additional observations from a re-analysis of the deposited data

Results flagged for a closer look

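In 2 of the 68 genes examined the lowest culture array stood apart from the other 5, by a ratio of gap to range above Dixon's critical value for 6 samples; chance flags about 1 in 20 groups. For Rab39a the ratio was 0.921, with 5.43 in MesPC replicate 4 and 5.67 in the nearest array, both within the range of the bacterial controls. For Rab10 it was 0.72, with 11.46 in MesPC replicate 1 and 11.78 in the nearest array.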

How the results depend on the processing

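The count of Rab genes that rose, 7, was 5 to 10 under the alternatives. The count that fell, 9, became 5 with the random block, 14 with MesPC replicates 1 to 3 alone and 15 with the replicate block. Of the 104 regulators and effectors, 17 rose and 28 fell, where 21.9% and 22.7% of all genes did. With the random block 11 rose and 11 fell, where 13.2% and 9.11% of all genes did. With MesPC replicates 1 to 3 alone 19 rose and 44 fell, where 25.7% and 27% of all genes did. With the replicate block 43 fell. No share of all genes is given for that block or for the fits without single arrays. Leaving out single arrays gave 5 to 7 Rab genes that rose and 6 to 10 that fell, and 13 to 18 and 21 to 31 regulators. Between the culture sets the count higher in arrays 1 to 3 by at least 0.5 was 0 and became 1 with quantile normalization and with probe sets averaged per gene, and 0 to 1 without single arrays (1 without MesPC replicate 1); the count lower stayed at 2 without single arrays and was 3 with centring on ribosomal protein probe sets. Of the values of the 44 genes under the alternatives, 717 kept their side of the threshold, 35 lost a call and 33 gained one, and no called value changed sign. Rab34, Rab8a, Rab26, Rab3b, Rab3d, Rab31, Rab15, Rab25, Rab9a and Rab28 kept their calls in every alternative that measured them. For Rab26 and Rab25 these were 17 of 18, as the filter for dim probe sets dropped both. Of the regulators and effectors named, that filter also dropped Rims3, Sh3tc2 and Fyco1.

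The replicate block used MesE11 and MesPC replicates 1 to 3, the numbers both groups share, and so left out MesPC replicates 4 to 6. For these arrays, deviations of same-numbered arrays from the mean of their 3 arrays correlated at 0.084, -0.119 and -0.111. The other pairings gave -0.176 to 0.257, and MesPC replicates 4 to 6 were not compared. Deviations from a mean of 3 arrays depend on each other, so these values cannot decide which arrays share an embryo pool. The labels do not give it either, and the shared numbers were not taken to mark a shared pool. MesPC replicates 1 to 3 without the block gave 7 Rab genes that rose and 14 that fell, and the block 7 and 15. Without the dimmest 40% of probe sets 37 members were left. Centring on ribosomal protein probe sets shifted all differences by -0.08, and Rab11a, Rab13 and Rab20 then passed as lower (-0.21, -0.22 and -0.23). Where a call was lost or gained, the cause was not tested.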

Other observations

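A pair of probe sets listed for both Rab1b and Rab1a stood outside the family as counted. The brighter read 9.74, 9.69 and 9.94 in culture arrays 1 to 3 and 9.49, 9.24 and 9.50 in arrays 4 to 6, against 9.60, 9.57 and 9.35 in tissue (0.10 ± 0.14, limma adjusted p = 0.584). Arrays 1 to 3 lay above arrays 4 to 6 without overlap, as they did for the probe set of Rab1b alone (0.21 ± 0.08), while Rab1a alone differed between the culture sets by -0.02 ± 0.07. The other read 5.62 in culture and 5.70 in tissue, within the range of the bacterial controls.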
